A study of Rattus norvegicus with 91 samples.

Results

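The comparison described here sets rat liver taken 8 h after methylprednisolone, a synthetic glucocorticoid, against control liver. Its members are 3 arrays labelled 8 h and 4 arrays labelled control, chosen by their titles from the 91 arrays of the series. The 8 h arrays come from Wistar rats given 50 mg/kg of the drug, and the control arrays from Wistar rats labelled time 0 of the same course. That course, called short here, ran to 72 h and holds 47 arrays, while a second course, called long here, used another Affymetrix array design with its own controls. The dose of 50 mg/kg is recorded for all arrays, those of the controls and of the long course included. It therefore does not tell what the controls received. The labels give no sex, age, route, vehicle or schedule, and they do not say whether arrays of a group come from separate animals. The p-values judge a difference against the spread between arrays of a group, shared over all groups of the course. That spread may be technical. As background outside the labels, published work on the short course used adrenalectomised male rats, so that both the treated and the control liver lack adrenal glucocorticoids, with an intravenous bolus, and the long course was an infusion. Total RNA of whole liver was hybridised, and 8740 probe sets were read, of which 7006 carry a single gene symbol and stand for 4736 named genes.

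Glucocorticoids enter the hepatocyte, bind the glucocorticoid receptor and move it to the nucleus, where the receptor raises some genes by binding DNA and restrains others through partner factors. In liver they are known for inducing enzymes that break down amino acids and make glucose, for sensitising the acute-phase response of plasma proteins to cytokines, and for damping the production of cytokines. The acute phase of the rat differs from that of other mammals in its main protein, α2-macroglobulin, whose induction by interleukin-6 needs a glucocorticoid.

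All 7 arrays shared one deposited scale. The signals of 8 measured hepatocyte marker genes, in arbitrary intensity units, summed to 71174 to 102384 at 8 h and 59949.8 to 213508 in the controls. Of the 8, 0 passed the test. The sums do not show that each marker was bright on each array. One probe set of Alb, albumin, read 0.323, 3.17 and 12.2 at 8 h, against 0.191, 75.3, 18574 and 12422 in the controls. Replicate 3 of the 8 h group stood apart from replicates 1 and 2. Its correlation with them over all probe sets was 0.929 and 0.936, whereas replicates 1 and 2 correlated at 0.965 with each other. The arrays most like it were replicate 3 at 7 h (0.973), replicate 2 at 5 h (0.968) and replicate 3 at 4 h (0.9665). Whether arrays with the same replicate number share a batch is not stated in the labels. The log2 ratio of the 3′ to the 5′ Gapdh control probe set, a measure of RNA integrity, was -0.02, 0.02 and -0.21 in replicates 1 to 3 at 8 h, against 0.13, -0.05, 0.26 and 0.24 in the controls, and its part in the results was not tested. Without replicate 3, 69 of the 93 named genes that passed no longer did, and the losses are given list by list below.

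A difference is given as log2(signal + 32) at 8 h minus control with its standard error, and it counts as past the threshold at an adjusted p under 0.05 in limma's moderated test with Benjamini-Hochberg adjustment over all probe sets. At 8 h 732 of 8740 probe sets passed (8.38%), with 465 higher (5.32%) and 267 lower (3.05%). Of these, 196 were higher and 155 lower by more than 1 on the log2 scale, and in 639 the arrays of the groups did not overlap. Among all probe sets, 12.2% had every 8 h array above every control and 5.74% every 8 h array below. The median of all probe sets was itself 0.12 above 0. With every array centred on its median the split was 204 higher and 460 lower, and with quantile normalisation 325 and 328, so the excess of rises over falls did not hold under either. Without 8 h replicate 3 the count was 180, of which 168 were among the 732. With every array on its deposited scale, which alters only 1 array at 6 h, the count was 96. The count was 59 in a fit of the arrays of the 2 groups alone and 365 with the replicate number as a block. It was 418 without 8 h replicate 2, 318 without control replicate 3 and 393 without control replicate 4. Replicate 3 was the most extreme of the 8 h arrays in 259 of the 465 rises (55.7%) and in 189 of the 267 falls (70.8%), against 45.5% and 44.3% of all probe sets with that sign. By gene, each standing for its brightest probe set, 270 of 4736 rose (5.7%) and 164 fell (3.46%).

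**Figure D1:**
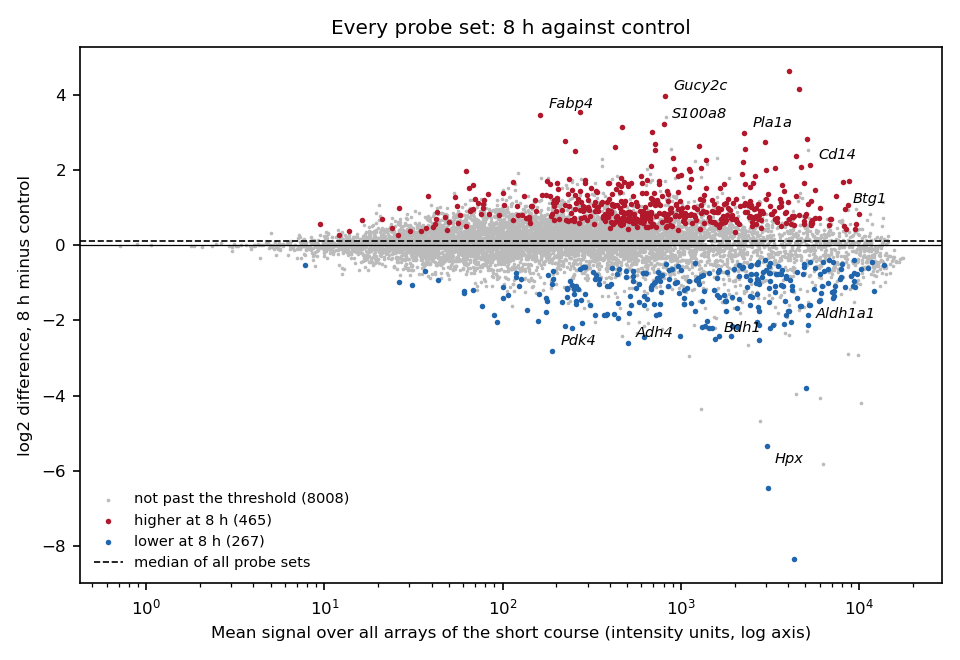
Log2 difference of 8 h minus control (vertical) against mean signal over all short-course arrays (horizontal, log axis) for 8740 probe sets, with 465 higher ones in red, 267 lower ones in blue and the rest in grey. Of the 732 coloured probe sets 48 lie below a mean signal of 91.2, and the dashed line marks the median of all probe sets, 0.12.

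α2-macroglobulin (A2m), the protease inhibitor that leads the acute phase of the rat, held the 4 lowest adjusted p-values of the comparison. One of its probe sets read 6729, 9669 and 9486 at 8 h, against 93.9, 485, 250.1 and 762 in the controls. All 8 h arrays lay above all controls, and the difference was 4.62 ± 0.56 (adjusted p = 6.05e-06). A companion probe set named for the same sequence gave 4.14 ± 0.49 (adjusted p = 6.05e-06), and the other 2 of the 4 gave 3.53 ± 0.46 (adjusted p = 1.89e-05) and 2.74 ± 0.38 (adjusted p = 5.81e-05). Without 8 h replicate 3 these 4 differences ran from 2.72 to 4.54. A further probe set, the brightest and so the one that stands for A2m in the lists, read 6555, 9316 and 4930.4 at 8 h, against 1010.2, 2699, 1540.1 and 4291 in the controls, a difference of 1.68 ± 0.46 (adjusted p = 0.0195). The last probe set annotated to A2m, M23566exon_s_at, went the other way, with 393, 491 and 398 at 8 h, against 3285, 8758, 4093 and 13375 in the controls, a difference of -3.79 ± 0.69 (adjusted p = 0.0013). A2m was the only gene with probe sets past the threshold in both directions, and whether M23566exon_s_at reads the same transcript was not tested. All 6 are given here because of their values.

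Among genes chosen by a fixed rule from their brightest probe set, the largest rise was that of Gucy2c, guanylate cyclase C, the receptor of the gut peptides guanylin and uroguanylin. Its signal was 825, 2544 and 2703 at 8 h, against 81.3, 272, 50.8 and 33.5 in the controls. Every 8 h array was above every control, with replicate 1 the lowest of the 3, and the difference was 3.96 ± 0.68 (adjusted p = 0.000788). Fabp4, a fatty acid-binding protein of adipocytes and macrophages, read 379, 345 and 748 at 8 h, against 4.05, 14.5, 22.5 and 11.5 in the controls, so that it was near the bottom of the scale in all controls and clear of it in all 8 h arrays (3.47 ± 0.63, adjusted p = 0.00128). Pla1a, a phospholipase that acts on phosphatidylserine, read 2828, 3829 and 5019.6 at 8 h, against 141, 1622, 590.1 and 279 in the controls. The groups did not overlap, though control 2 came within reach of the 8 h arrays, and the difference was 2.98 ± 0.57 (adjusted p = 0.00193). Sod2, the manganese superoxide dismutase of mitochondria, read 3932, 2581 and 5546 at 8 h, against 551, 1042, 629.8 and 405 in the controls, with no overlap (2.57 ± 0.51, adjusted p = 0.0022). Cd14, the co-receptor of bacterial lipopolysaccharide on macrophages, read 4994, 7119 and 12693 at 8 h, against 1897, 1910.0, 1962 and 1286 in the controls. Replicate 3 was the highest, but each 8 h array was above each control, and the difference was 2.12 ± 0.44 (adjusted p = 0.00318). Tnk2, a cytoplasmic tyrosine kinase, rose by 2.10 ± 0.35 (adjusted p = 0.00071), with signals of 1335 ± 431 at 8 h (SD, n = 3) and 283 ± 78.9 in the controls (n = 4). These 6 genes were still past the threshold when each of the 7 arrays was left out in turn, as were 12 others of the 93 named genes that passed.

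Some other large rises of the fixed rule lost the call when single arrays were left out. Zfp354a, a KRAB zinc-finger protein, read 652, 1473 and 345 at 8 h, against 80.8, 94.4, 129 and 54.9 in the controls. All 3 treated arrays were above the controls but spread widely, and the difference of 2.62 ± 0.67 (adjusted p = 0.0147) lost its call without 8 h replicate 2. Rdh16, a retinol dehydrogenase, differed by 2.26 ± 0.73 (adjusted p = 0.0487), Fabp5, a fatty acid-binding protein, by 2.06 ± 0.45 (adjusted p = 0.00517), Vim, the intermediate filament vimentin of mesenchymal cells, by 2.05 ± 0.53 (adjusted p = 0.0163), and Ccng1, cyclin G1, by 1.96 ± 0.42 (adjusted p = 0.00418). Without 8 h replicate 3 the values were 2.00 (adjusted p = 0.214) for Rdh16, 1.80 (adjusted p = 0.0551) for Fabp5, 1.53 (adjusted p = 0.166) for Vim and 1.48 (adjusted p = 0.0683) for Ccng1. Rdh16 lost the call on leaving out any of 6 of the 7 arrays. It also did not pass with quantile normalisation (adjusted p = 0.0629) or median centring (adjusted p = 0.0818). Outside the fixed rule, and named because of their values, were Odc1 and Cited2. Odc1, ornithine decarboxylase, which makes the polyamine putrescine, read 2908, 5165 and 4301 at 8 h, against 1218, 1600.5, 813 and 915 in the controls on its brightest probe set, with no overlap (1.84 ± 0.31, adjusted p = 0.000748), and 1.79 (adjusted p = 0.00916) without replicate 3. Cited2, a transcriptional co-activator, read 1469, 2165 and 3583 at 8 h, against 1139, 449, 503 and 453 in the controls on its brightest probe set (1.89 ± 0.53, adjusted p = 0.0235), again with no overlap, and 1.55 (adjusted p = 0.168) without replicate 3.

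**Figure D2:**
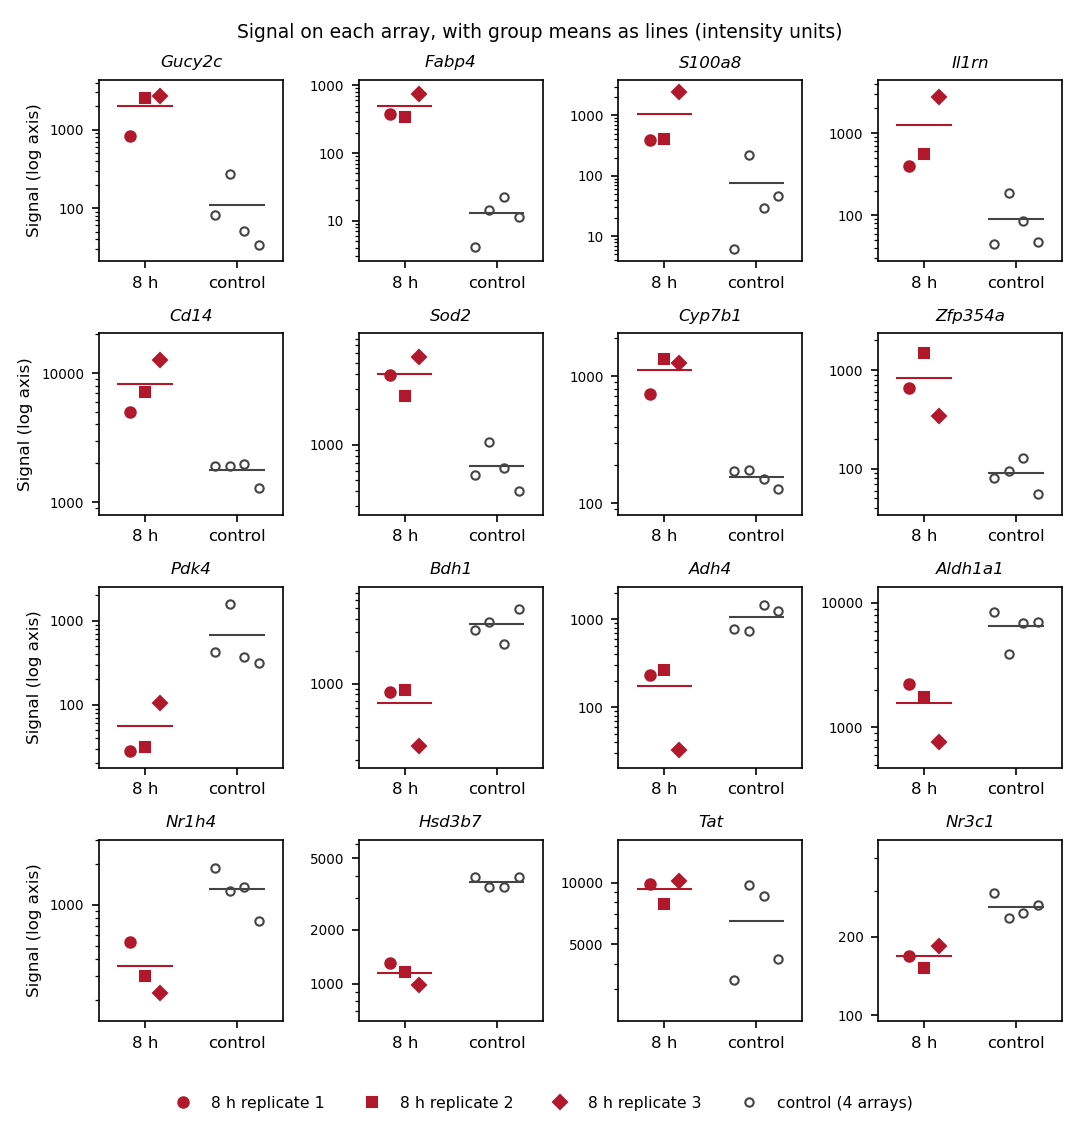
Signal on each array (log axis, intensity units) for 16 genes, with the 3 arrays at 8 h in red on the left of each panel, the 4 controls as open circles on the right and group means as lines. In Gucy2c, Fabp4, Cd14 and Sod2 every 8 h array lies above every control, in Pdk4, Bdh1, Aldh1a1, Nr1h4 and Hsd3b7 every one lies below, and in Tat the groups overlap.

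The receptor gene and Tat did not pass, while 3 genes of the receptor's list rose. Nr3c1, the glucocorticoid receptor gene, read 169, 152 and 185 at 8 h, against 294, 236, 247 and 265 in the controls. All 3 treated arrays were below the controls, but the difference of -0.54 ± 0.27 (adjusted p = 0.214) did not pass. Tat, tyrosine aminotransferase, the classical hormone-induced enzyme of the liver, read 9857, 7867 and 10149 at 8 h, against 3341, 9713, 8588 and 4209 in the controls, and the groups overlapped, with controls 2 and 3 near the treated arrays (0.65 ± 0.32, adjusted p = 0.209). In the list of the receptor with its feedback and induced genes, 3 of 18 measured members rose and 0 fell, 16.7% against 9.16% of all genes, with a list median of 0.83 against 0.13 for all genes, or 0.43 without 8 h replicate 3. The 3 were Klf9, a receptor-induced zinc-finger repressor, Zfp36, which destabilises cytokine mRNAs, and Il6r, the interleukin-6 receptor that hepatocytes carry for the acute phase. Il6r read 2009, 2805 and 2928 at 8 h, against 1194, 1305, 1469.8 and 1003 in the controls, with no overlap (1.03 ± 0.27, adjusted p = 0.0172). Klf9 read 2014, 2401 and 4115 at 8 h, against 1525, 1721, 703 and 933 in the controls (1.22 ± 0.35, adjusted p = 0.0276), and Zfp36 read 2031, 2626 and 5415 at 8 h, against 1636, 1844, 934 and 1021 in the controls (1.22 ± 0.35, adjusted p = 0.025). In both, replicates 1 and 2 lay close above the highest control and replicate 3 far above it. Without replicate 3 none of the 18 passed, and the values were 0.92 (adjusted p = 0.223) for Klf9, 0.81 (adjusted p = 0.266) for Zfp36 and 0.93 (adjusted p = 0.109) for Il6r. With median centring Klf9 (adjusted p = 0.0527), Zfp36 (adjusted p = 0.0519) and Il6r (adjusted p = 0.0637) did not pass either. The same held for each of them with the replicate number as a block and without control 4. Several members with large differences did not pass, among them Cebpd, an acute-phase transcription factor, with 2.16 (adjusted p = 0.0847), Nfkbia, the inhibitor of NF-κB, with 1.77 (adjusted p = 0.0587), and Cdkn1a, the cell-cycle inhibitor p21, with 1.63 (adjusted p = 0.0934). Pck1, the rate-limiting enzyme of gluconeogenesis, stood at -0.50 (adjusted p = 0.682).

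Genes of inflammation were higher, not lower, where they differed. Of 34 measured chemokines, cytokines and alarmins 6 rose and 0 fell, 17.6% against 9.16% of all genes, and the list median was 0.64. The 6 were S100a8 and S100a9, the calcium-binding pair of neutrophils and monocytes, Il1rn, the antagonist of the interleukin-1 receptor, Il1r1 and Il1r2, the signalling and the decoy receptor of interleukin-1, and Il6r. S100a8 read 394, 412 and 2412 at 8 h, against 6.19, 224, 29.8 and 45.7 in the controls. Replicate 3 was several times the other treated arrays, control 2 was far above the other controls, and the difference was 3.22 ± 0.89 (adjusted p = 0.0221). Il1rn read 401, 552 and 2771 at 8 h, against 44.2, 188, 85.9 and 47.1 in the controls (3.00 ± 0.75, adjusted p = 0.0118), S100a9 differed by 2.33 ± 0.65 (adjusted p = 0.023), Il1r2 by 1.64 ± 0.41 (adjusted p = 0.0113) and Il1r1 by 1.77 ± 0.56 (adjusted p = 0.0455). In none of these did the groups overlap, yet without replicate 3 none of the list's 34 members passed on its brightest probe set. The values then were 2.39 (adjusted p = 0.201) for S100a8, 2.17 (adjusted p = 0.148) for Il1rn, 1.79 (adjusted p = 0.197) for S100a9, 1.40 (adjusted p = 0.0986) for Il1r2 and 1.16 (adjusted p = 0.347) for Il1r1. A dimmer probe set of Il1r1 differed by 2.77 ± 0.55 (adjusted p = 0.00228), and it passed without replicate 3 too (2.38, adjusted p = 0.0339). The remaining Il1r1 probe sets, at 1.19 and 0.22, did not pass with all arrays. Effector cytokines did not pass, with 0.98 (adjusted p = 0.292) for Il1b, 0.20 (adjusted p = 0.855) for Tnf, 0.71 (adjusted p = 0.542) for Il6 and 1.03 (adjusted p = 0.398) for the monocyte attractant Ccl2. None of 21 interferon-response and antigen-presentation genes passed, and their median was 0.30.

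Markers of neutrophils were higher on the same arrays. Their summed signal over 6 measured genes was 1354, 1449 and 5217 at 8 h, against 243 to 882 in the controls. Of the 6, 2 rose, S100a8 and S100a9, 33.3% against 9.16% of all genes. The other 4 did not pass, with 1.19 (adjusted p = 0.153) for the gelatinase Mmp9, 1.00 (adjusted p = 0.178) for the chemokine receptor Cxcr2, 0.47 (adjusted p = 0.527) for the collagenase Mmp8 and 0.38 (adjusted p = 0.327) for the integrin Itgam. Cxcr2 read 60.6, 87.0 and 152 at 8 h, against 25.7, 59.5, 6.70 and 47.2 in the controls, so replicate 3 was again the highest. Summed Kupffer cell and macrophage markers were 14294 to 25619 at 8 h and 10005 to 14085 in the controls. Cd14 alone made up 4994 to 12693 of these sums at 8 h and 1286 to 1962 in the controls. The median of the 8 measured genes was 0.08, and 4 of them had a positive difference. There Cd14 rose, also without replicate 3, and Clec4f, a lectin of Kupffer cells, fell by 1.74 on the log2 scale (adjusted p = 0.0157), with signals of 532, 620.0 and 396 at 8 h, against 1473, 1603, 1885 and 2223 in the controls, a call that was lost without replicate 3. Endothelial markers summed to 2612 to 3534 at 8 h and 1467 to 1835 in the controls. Their median over 6 measured genes was 0.24, or -0.02 without replicate 3. Of the 6 only Lyve1, of sinusoidal endothelium, passed, with a rise of 1.55 ± 0.28 (adjusted p = 0.00127). None of 14 T and NK cell markers passed. In RNA of whole liver, more cells of a type and more RNA per cell cannot be told apart, and the part of these cells in the results was not tested.

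In the acute-phase list 2 of 24 measured genes rose, A2m and Lbp, and 1 fell, Hpx, which is 12.5% against 9.16% of all genes. The median was -0.52, or -0.18 with quantile normalisation. Lbp, the lipopolysaccharide-binding protein, read 5902, 7238 and 6203 at 8 h, against 593, 7339, 2683 and 2309.9 in the controls, and control 2 overlapped the treated arrays (1.47 ± 0.46, adjusted p = 0.04). Lbp lost the call on leaving out any of 6 of the 7 arrays (adjusted p from 0.0647 to 0.173) and with median centring (adjusted p = 0.0799). The A2m probe set of this list lost it without 8 h replicate 2, control 1 or control 3 (adjusted p up to 0.0964). Hpx, the heme carrier hemopexin, is among the probe sets that read erratically, with 0.215, 119.9 and 0.115 at 8 h, against 629, 30.0, 24658 and 22171 in the controls. Its difference of -5.33 ± 1.70 (adjusted p = 0.0455) is therefore no measure of size, and it did not pass without replicate 3 (adjusted p = 0.182). Of 1813 probe sets with a mean signal over 1000, 8 read under 1 unit on at least 1 array at 8 h and 5 on at least 1 control array, and Kng2, a kininogen, was among the 8. Its difference of -5.83 (adjusted p = 0.0931) did not pass. Among 29 other secreted proteins and carriers 3 fell and 0 rose, 10.3% against 9.16%, with a median of -0.46, or -0.11 with quantile normalisation. Proc, the anticoagulant protein C, read 2115, 1949 and 1665 at 8 h, against 4380.2, 2888, 4422 and 3339.8 in the controls, with every treated array below every control (-0.95 ± 0.17, adjusted p = 0.0013). Serpina6, the corticosteroid-binding globulin that carries glucocorticoids in plasma, read 6538, 6225 and 5842 at 8 h, against 10102, 5790.5, 16870.5 and 14659 in the controls, and control 2 overlapped (-0.82 ± 0.25, adjusted p = 0.035). The other probe set of Serpina6 differed by 0.51 and did not pass. Pon1, the paraoxonase of high-density lipoprotein, differed by -0.62 ± 0.20 (adjusted p = 0.0448). Proc passed without any one array, and Serpina6 and Pon1 each lost the call on leaving out single arrays of either group and with quantile normalisation, where Serpina6 was -0.64 (adjusted p = 0.0766) and Pon1 -0.40 (adjusted p = 0.233).

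In the lists of protein synthesis, folding and degradation the differences were small. On their brightest probe sets all 21 measured proteasome subunits had a positive difference, as did 3007 of all 4736 genes. The other probe set read -0.30 for Psma6 and -0.07 for Psma1, but 0.35 for Psma7 and 0.47 for Psmb2. Of the 21, 6 rose and 0 fell, 28.6% against 9.16% of all genes. The median was 0.40 against 0.13 for all genes (0.39 with quantile normalisation and 0.21 with median centring). Psmd13, a subunit of the regulatory particle, read 959, 1023 and 1054 at 8 h, against 542, 769, 427 and 493 in the controls, and the groups did not overlap (0.85 ± 0.19, adjusted p = 0.00495). Psma6, a subunit of the core, read 4712, 5089 and 5939.6 at 8 h, against 3167, 3334, 2782 and 2911 in the controls, likewise with no overlap (0.77 ± 0.17, adjusted p = 0.00615). The others that rose were Psma7 (0.71), Psmb2 (0.64), Psma1 (0.63) and Psmb1 (0.52), and without 8 h replicate 3 Psmd13 and Psma7 passed. Psma7 lost the call without 8 h replicate 1 or 2 or control 1 or 4. With median centring Psma7 (adjusted p = 0.122), Psmb2 (adjusted p = 0.116) and Psma1 (adjusted p = 0.0636) did not pass. Of 27 heat-shock, chaperonin and folding proteins 4 rose, 14.8% against 9.16%, with a median of 0.46. They were Dnaja2, a partner of Hsp70 (0.91 ± 0.24, adjusted p = 0.0184), the lectin chaperone calnexin, Canx (0.82 ± 0.22, adjusted p = 0.0183), the endoplasmic reticulum chaperone Hspa5 (0.56 ± 0.18, adjusted p = 0.0494) and the mitochondrial chaperonin Hspd1 (0.50 ± 0.13, adjusted p = 0.0165). Of these 4 only Hspd1 passed without replicate 3, and only Canx, at an adjusted p of 0.0499, with median centring. Of 21 translation factors and tRNA synthetases 3 rose, 14.3% against 9.16%, namely Eif3b, a scaffold of initiation factor 3, which read 3700.1, 3524 and 3992 at 8 h, against 2030.0, 2701, 1586 and 1679 in the controls (0.92 ± 0.18, adjusted p = 0.00232), the cap-binding protein Eif4e (0.86 ± 0.25, adjusted p = 0.0305) and the valyl-tRNA synthetase Vars1 (0.77 ± 0.24, adjusted p = 0.0402). Eif3b alone passed without replicate 3, and Eif4e and Vars1 did not pass with median centring either. In 37 ribosomal protein genes, whose probes can also match processed pseudogenes, 3 rose, 8.11% against 9.16%, and the median of 0.07 turned to -0.12 with median centring. The 3 were Rpl6, which read 8012, 8825 and 8567 at 8 h, against 5368, 7075, 4675 and 4112 in the controls (0.70 ± 0.13, adjusted p = 0.00193), Rps24 (0.89 ± 0.22, adjusted p = 0.0118) and Rpl4 (0.43 ± 0.14, adjusted p = 0.0479), of which only Rpl6 passed without replicate 3.

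Growth-arrest genes were among the rises of the 21 cell-cycle genes, where 3 rose and 0 fell, 14.3% against 9.16% of all genes. Btg1, an antiproliferative gene, read 9048, 11123 and 10558 at 8 h, against 5934, 6537, 4678 and 4205 in the controls. The groups did not overlap, and the difference of 0.95 ± 0.19 (adjusted p = 0.00212) passed without any one array. Ccng1 and the D-type cyclin Ccnd3 (1.12 ± 0.35, adjusted p = 0.0399) were the others, and neither passed without replicate 3. Of 4 probe sets of Ccnd3 1 passed, and their differences ran from 0.02 to 1.69. Among 24 immediate-early and stress factors Fos alone rose, 4.17% against 9.16% of all genes. It read 1040.0, 1133 and 1769 at 8 h, against 709.6, 871, 452 and 609.7 in the controls (0.96 ± 0.30, adjusted p = 0.0453). Of 3 probe sets of Fos 1 passed, and the lowest difference was -0.46. Without replicate 3 Fos was 0.73 (adjusted p = 0.282), and Nr4a3, an orphan nuclear receptor, passed. None of 9 clock genes passed. Of 29 liver transcription factors and nuclear receptors 1 rose and 1 fell, 6.9% against 9.16% of all genes. Thra, a thyroid hormone receptor, rose by 1.41 ± 0.40 (adjusted p = 0.0245), while Nr1h4 fell, and Thra did not pass without replicate 3 (adjusted p = 0.146). Of 3 probe sets of Thra 1 passed, and the lowest difference was -0.04.

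Fatty acid oxidation had the highest share of falls among the 27 pathway lists over all arrays, but not without replicate 3, when 10.7% fell against 12.5% of the bile acid genes. In 28 measured genes 8 fell and 0 rose, 28.6% against 9.16% of all genes, and the median was -0.48 (-0.53 with quantile normalisation). Pdk4, the kinase that shuts pyruvate dehydrogenase and so favours fat as fuel, read 28.3, 31.5 and 106 at 8 h, against 425, 1593, 365 and 318 in the controls. Every treated array was below every control, with replicate 3 the highest of the 3, and the difference was -2.81 ± 0.64 (adjusted p = 0.00691). Bdh1, which interconverts the ketone bodies, read 846, 876 and 268 at 8 h, against 3161, 3755, 2357 and 4963 in the controls, with no overlap (-2.48 ± 0.36, adjusted p = 8.06e-05). Peroxisomal Ehhadh, the bifunctional enzyme of the oxidation cycle, read 1112, 708 and 228 at 8 h, against 3148, 3258, 2374 and 2138 in the controls (-2.17 ± 0.51, adjusted p = 0.00789). Here the groups did not overlap either, and replicate 3 was the lowest by far. Ech1, a dienoyl-CoA isomerase, differed by -2.17 ± 0.57 (adjusted p = 0.0164), Acsl1, which activates long-chain fatty acids, by -1.58 ± 0.42 (adjusted p = 0.0166), Acaa2, the mitochondrial thiolase, by -1.40 ± 0.24 (adjusted p = 0.000809), Decr1, a dienoyl-CoA reductase, by -1.15 ± 0.35 (adjusted p = 0.0342) and Acat1, the thiolase of ketone metabolism, by -0.82 ± 0.25 (adjusted p = 0.033). Without replicate 3 Pdk4, Bdh1 and Acaa2 passed, and Ehhadh stood at -1.56 (adjusted p = 0.122). The receptor Ppara, the main activator of this pathway, stood at 0.58 (adjusted p = 0.146), and Cpt1a, its gatekeeper at the mitochondrial membrane, at -0.80 (adjusted p = 0.202).

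Oxidative phosphorylation was mixed, with 2 of 39 genes higher and 6 lower, 20.5% against 9.16% of all genes. The median was 0.02, or -0.01 with quantile normalisation. Of the 6 that fell, 4 encode subunits of ATP synthase, namely Atp5f1c (-0.67), Atp5po (-0.60), Atp5f1d (-0.51) and Atp5f1e (-0.45), and the others were Ndufs7 of complex I (-0.59) and Sdha of succinate dehydrogenase (-0.40). Ndufa5 of complex I (0.57) and Cyc1, cytochrome c1 (0.46), rose. Without replicate 3 none of the 39 passed. Ak4, the adenylate kinase of the mitochondrial matrix, read 597, 289 and 866 at 8 h, against 3776, 1943, 2211 and 2613 in the controls, with no overlap (-2.19 ± 0.55, adjusted p = 0.012).

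Bile acid genes had the lowest median of the 27 lists, -0.98, with 4 of 16 lower and 2 higher, 37.5% against 9.16% of all genes. Nr1h4, the bile acid receptor FXR, read 535, 301 and 224 at 8 h, against 1875, 1266, 1362 and 769 in the controls. Every treated array was below every control, replicate 3 the lowest, and the difference was -1.82 ± 0.38 (adjusted p = 0.00316). Hsd3b7, which acts on the sterol ring early in bile acid synthesis, read 1305, 1157 and 988 at 8 h, against 3952, 3465, 3467 and 3932 in the controls, tight in both groups and without overlap (-1.67 ± 0.31, adjusted p = 0.00148). Akr1d1, the sterol reductase of a later step, read 3799, 3837 and 1431 at 8 h, against 6436, 7461, 7943 and 8766 in the controls (-1.45 ± 0.30, adjusted p = 0.00291). Slc10a1, the sodium-dependent bile acid importer, read 2560.3, 1881 and 357 at 8 h, against 9474, 1943, 7375 and 5900.5 in the controls. Control 2 overlapped the treated arrays there, and the difference was -2.11 ± 0.67 (adjusted p = 0.0444). Cyp7b1, the oxysterol hydroxylase of the alternative pathway, read 719.8, 1361 and 1279 at 8 h, against 179, 184, 155 and 131 in the controls, the opposite direction, with no overlap (2.53 ± 0.51, adjusted p = 0.00283). Cyp27a1, which starts that pathway, rose by 0.59 ± 0.16 (adjusted p = 0.019), with signals of 6567, 6892 and 5569 at 8 h, against 4302, 4196, 3848 and 4400.5 in the controls. Cyp7a1, the rate-limiting enzyme of the classical pathway, was at -0.03 (adjusted p = 0.992). Without replicate 3 Cyp7b1, Cyp27a1, Nr1h4 and Hsd3b7 passed, while Akr1d1 was -0.99 (adjusted p = 0.0666) and Slc10a1 -1.27 (adjusted p = 0.376).

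Drug-metabolising enzymes made up the largest list, and 14 of its 60 measured genes fell while 1 rose, 25% against 9.16% of all genes, with a median of -0.50, or -0.26 without replicate 3 and -0.37 with quantile normalisation. Adh4, an alcohol dehydrogenase that also oxidises retinol, read 231, 263 and 32.6 at 8 h, against 764, 739, 1458 and 1239.7 in the controls (-2.60 ± 0.62, adjusted p = 0.00847). The groups did not overlap, and replicate 3 lay far below replicates 1 and 2. Aldh1a1, the retinaldehyde dehydrogenase, read 2216, 1742 and 759 at 8 h, against 8445, 3863, 6899 and 7047 in the controls, with no overlap (-2.11 ± 0.37, adjusted p = 0.000809). Akr7a3, the aflatoxin aldehyde reductase, read 773, 731 and 330.3 at 8 h, against 7893, 2601, 1593 and 3269.7 in the controls, with no overlap (-2.42 ± 0.58, adjusted p = 0.00861), and Gstt2, a glutathione transferase, read 1754, 1238 and 762 at 8 h, against 3459, 4230.3, 8708 and 5879 in the controls, also with none (-2.11 ± 0.51, adjusted p = 0.0099). The other 10 that fell were Cyp2a2 (-1.75), Gsta3 (-1.58), Ephx1 (-1.35), Sult1c3 (-1.12), Gsta1 (-1.09), Adh1c (-1.08), Gstt1 (-1.03), Ces1e (-1.02), Adh5 (-0.93) and Cyp2c23 (-0.53). Gene families such as the Cyp2c, Gsta and Sult genes have near-identical members whose probes can share signal, so the member named is uncertain. Por, the reductase that feeds electrons to all microsomal P450 enzymes, was the 1 that rose, with 3707, 4535 and 4503 at 8 h, against 1699.7, 1631, 1574 and 1648 in the controls and no overlap (1.35 ± 0.32, adjusted p = 0.00785). Without replicate 3 Aldh1a1, Ephx1 and Ces1e passed, while Adh4 stood at -1.90 (adjusted p = 0.123), Akr7a3 at -2.05 (adjusted p = 0.0846) and Gstt2 at -1.81 (adjusted p = 0.0899). Glucocorticoid-inducible Cyp3a23-3a1 stood at -0.41 (adjusted p = 0.575).

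The sequence at the start of these genes was read for letters of the receptor's half-site. The windows are from RefSeq on build GRCr8, 250 bases before to 50 after the annotated start, and 3871 of the 4736 genes had one. The motifs searched were AGAACA on either strand, the half-site of the receptor's element, and TATAAA on the gene's strand, which can overlap other motifs freely. A half-site stood in 14.3% of these 3871 genes, in 11.3% of the 222 genes that rose and in 16.2% of the 130 that fell, against 20.7% of all 33469 windows. Among the 15 largest rises 9 had a window and 0 of these a half-site, and among the 15 largest falls 11 had a window and 1 a half-site, that of Akr7a3, 213 bases before its start. The windows of Pla1a, a rise that passed without any one array, Pdk4, the largest fall without overlap among the named genes, and Akr7a3 follow, 5′ to 3′ on the gene's strand, with the half-site in capitals. They lie at chr11:75825376-75825675 on the plus strand, chr4:34568280-34568579 on the minus strand and chr5:156876471-156876770 on the plus strand. The absence of the letters says only that they are not in this window.
Pla1a: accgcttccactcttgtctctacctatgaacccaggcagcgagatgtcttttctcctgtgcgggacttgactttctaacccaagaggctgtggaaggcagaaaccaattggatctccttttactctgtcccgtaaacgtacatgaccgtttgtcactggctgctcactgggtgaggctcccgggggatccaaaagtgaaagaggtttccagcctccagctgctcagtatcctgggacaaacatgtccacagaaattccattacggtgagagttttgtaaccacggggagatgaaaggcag
Pdk4: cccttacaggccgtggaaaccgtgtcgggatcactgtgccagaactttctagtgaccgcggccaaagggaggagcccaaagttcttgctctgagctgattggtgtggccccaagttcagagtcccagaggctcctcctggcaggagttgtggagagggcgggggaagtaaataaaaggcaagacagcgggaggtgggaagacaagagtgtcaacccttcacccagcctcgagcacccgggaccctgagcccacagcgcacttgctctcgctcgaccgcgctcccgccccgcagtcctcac
Akr7a3: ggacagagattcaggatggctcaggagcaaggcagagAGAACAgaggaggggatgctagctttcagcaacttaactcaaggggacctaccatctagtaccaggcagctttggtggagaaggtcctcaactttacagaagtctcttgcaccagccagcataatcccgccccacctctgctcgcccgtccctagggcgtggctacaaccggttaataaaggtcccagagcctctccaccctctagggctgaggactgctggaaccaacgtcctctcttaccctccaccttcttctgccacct

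Genes of oxidant defence split, with 3 of 22 higher and 2 lower, 22.7% against 9.16% of all genes. Beside Sod2, the rises were Hmox1, the inducible heme oxygenase, with 3113, 4171 and 11173 at 8 h, against 1009, 2938, 1444 and 1775 in the controls (1.64 ± 0.44, adjusted p = 0.0195), and Gpx2, a glutathione peroxidase, with 419.7, 414 and 390.4 at 8 h, against 112, 152, 63.6 and 86.0 in the controls (1.74 ± 0.45, adjusted p = 0.0145). Neither overlapped its controls, and Gpx2 was even across the 3 treated arrays whereas Hmox1 was highest in replicate 3. Gclm, the modifier subunit of the enzyme that starts glutathione synthesis, read 529, 284 and 284 at 8 h, against 2376, 1044, 1272 and 1087 in the controls (-1.86 ± 0.57, adjusted p = 0.0383), and cytosolic Sod1 differed by -0.46 ± 0.11 (adjusted p = 0.0102). With quantile normalisation Sod1 was -0.24 (adjusted p = 0.391), and another of its probe sets read 0.52 (adjusted p = 0.243). Sod2 alone passed without replicate 3. Of 15 genes of retinoid and steroid metabolism 1 rose and 1 fell, 13.3% against 9.16%. Rdh16 was the rise and Rdh10, another retinol dehydrogenase, the fall (-1.47 ± 0.40, adjusted p = 0.0199), and neither passed without replicate 3.

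Amino acid catabolism, a pathway known for its induction by glucocorticoids, had 5 falls and no rise among 24 genes, 20.8% against 9.16%, with a median of -0.44. Hal, the histidine ammonia-lyase that starts histidine breakdown, read 905, 255 and 93.6 at 8 h, against 1851, 1273, 2120.1 and 1589 in the controls. The groups did not overlap, but the treated arrays spread widely, with replicate 1 the highest, and the difference was -2.40 ± 0.53 (adjusted p = 0.00527). Kmo, of the kynurenine pathway of tryptophan, read 1638, 1157 and 869.8 at 8 h, against 3327, 2646, 2803 and 3506 in the controls (-1.34 ± 0.31, adjusted p = 0.00751), and Gls2, the liver glutaminase, read 784, 737 and 651 at 8 h, against 1064, 1279.8, 3112 and 1609 in the controls (-1.13 ± 0.28, adjusted p = 0.00998), both without overlap. Bckdha, of the branched-chain keto acid dehydrogenase, fell by 0.79 on the log2 scale and Agxt2, a mitochondrial aminotransferase, by 0.73. Members at the positive end did not pass, among them Got1 with 1.38 (adjusted p = 0.063), Tdo2, the hormone-induced tryptophan dioxygenase, with 0.96 (adjusted p = 0.0609), and Sds, serine dehydratase, with 0.86 (adjusted p = 0.672). Bckdha alone passed without replicate 3, and Hal was then -1.72 (adjusted p = 0.0907). In the methionine cycle Ahcy, which clears homocysteine's precursor, rose with 8599, 8219 and 7572 at 8 h, against 6990.4, 4337, 4457 and 4199.6 in the controls and no overlap (0.73 ± 0.22, adjusted p = 0.0314), Mat2a, an S-adenosylmethionine synthetase, rose by 1.08 ± 0.34 (adjusted p = 0.0408), and Dmgdh, dimethylglycine dehydrogenase, fell (-0.88 ± 0.24, adjusted p = 0.0222), the last 2 with overlapping arrays. Of the 11 genes of that list 2 rose and 1 fell, 27.3% against 9.16% of all genes, and none passed without replicate 3. Mat2a was then 0.46 (adjusted p = 0.494). None of 5 urea cycle genes passed.

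Carbohydrate and lipid synthesis showed single calls. Pfkl, the liver phosphofructokinase of glycolysis, read 1076, 1517 and 1813 at 8 h, against 598, 687, 406 and 433 in the controls, with no overlap (1.41 ± 0.26, adjusted p = 0.0013), and it passed without any one array. Pc, pyruvate carboxylase, which opens gluconeogenesis, read 1162, 1059 and 519 at 8 h, against 3476, 1575, 2588 and 1912 in the controls, again with no overlap (-1.37 ± 0.34, adjusted p = 0.0107), and it was -1.02 (adjusted p = 0.134) without replicate 3. The other 11 of the 13 genes did not pass, so that 15.4% passed against 9.16% of all genes. Among 18 genes of fatty acid synthesis and storage Fabp4 rose while Elovl5, an elongase of polyunsaturated fatty acids (-1.49 ± 0.37, adjusted p = 0.0107), and the hepatic lipase Lipc (-0.84 ± 0.24, adjusted p = 0.0237) fell. Of the 18 genes 16.7% passed against 9.16% of all genes, and without replicate 3 Fabp4 alone did. None of 15 cholesterol genes passed, and their median of 0.17 was -0.02 with median centring.

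In the list of insulin, growth hormone and IGF signalling 3 of 20 measured genes fell and 1 rose, 20% against 9.16% of all genes, and the median was 0.00. Ghr, the growth hormone receptor, read 3686, 3985 and 2409.9 at 8 h, against 9220.1, 5579, 8378 and 5670.4 in the controls, with no overlap (-1.09 ± 0.25, adjusted p = 0.00718). Igfals, the subunit that stabilises insulin-like growth factor in plasma, read 2578, 1236 and 952 at 8 h, against 5396, 2709, 4689 and 4476 in the controls, also with none (-1.51 ± 0.31, adjusted p = 0.00313), and Grb14, an adaptor that inhibits the insulin receptor, differed by -1.20 ± 0.38 (adjusted p = 0.0446). Igf1 itself stood at -0.44 (adjusted p = 0.0875). Stat3, which carries the interleukin-6 signal, rose in the same list of 20, with 596, 767 and 1079.8 at 8 h, against 211, 517, 113 and 202 in the controls (1.67 ± 0.37, adjusted p = 0.00543). The other probe set of Stat3 differed by 0.09 and did not pass. Without replicate 3 none of the 20 passed, with -0.87 (adjusted p = 0.0886) for Ghr, -1.21 (adjusted p = 0.0508) for Igfals and 1.45 (adjusted p = 0.0575) for Stat3. The glucagon receptor Gcgr fell among the hormone receptors (-1.16 ± 0.36, adjusted p = 0.0382), but it read 716, 262 and 233 at 8 h, against 1056, 401, 1122 and 1008 in the controls, so that control 2 overlapped, and it did not pass without replicate 3 (adjusted p = 0.257). Large falls outside these lists were those of Alad, an enzyme of heme synthesis (-2.51 ± 0.60, adjusted p = 0.00851), Akr1c13, an aldo-keto reductase (-2.41 ± 0.59, adjusted p = 0.00998), Dpys, which degrades pyrimidines (-2.21 ± 0.60, adjusted p = 0.02), Nat8b (-2.20 ± 0.53, adjusted p = 0.0099), the fatty acid-binding protein Fabp7 (-2.14 ± 0.48, adjusted p = 0.00588) and the prostaglandin transporter Slco2a1 (-2.13 ± 0.51, adjusted p = 0.00982). In all 6 the groups did not overlap, replicate 3 was the lowest treated array, and the call ended without it.

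**Figure D3:**
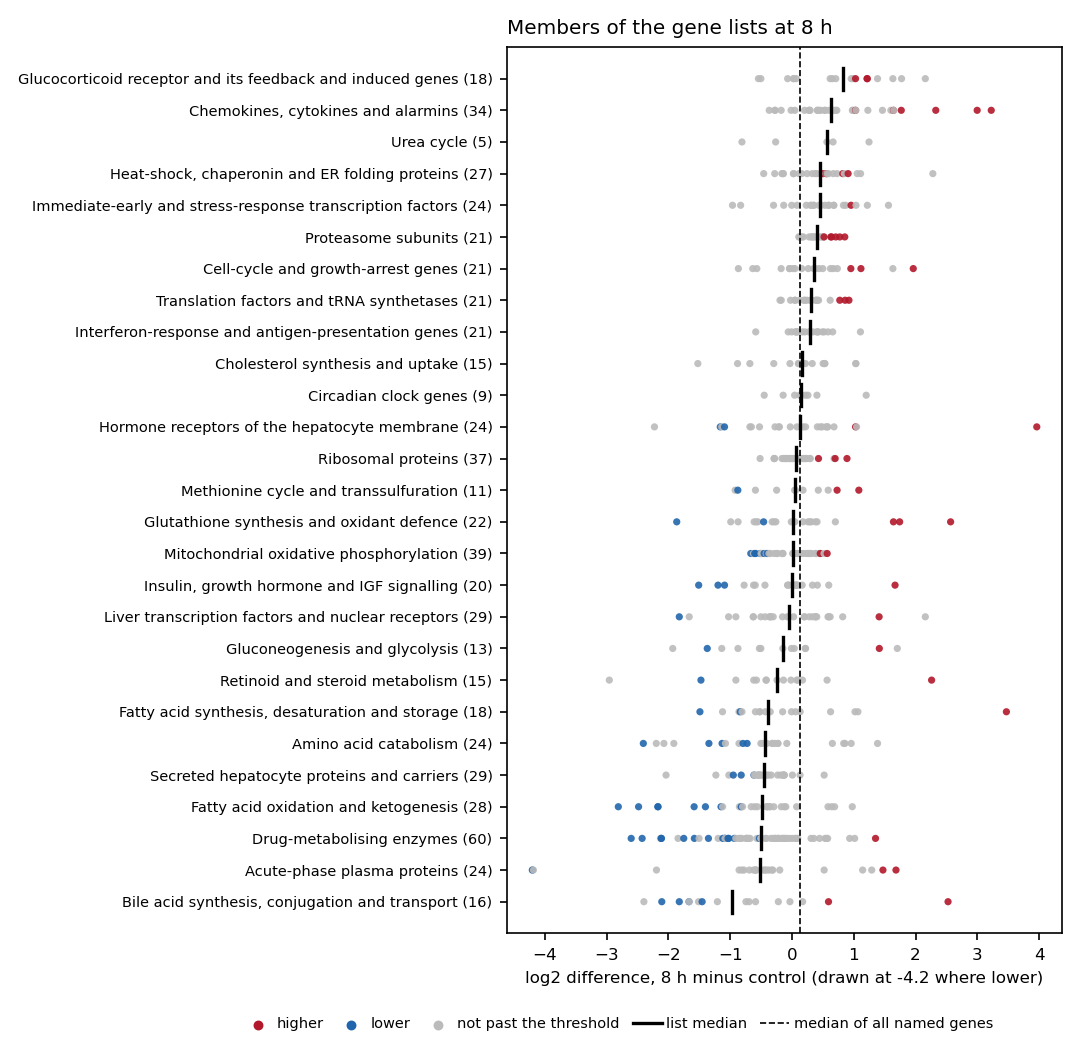
Log2 difference of 8 h minus control for each measured member of the 27 gene lists (points; red higher, blue lower, grey not past the threshold), with the list median as a black bar and the median of all named genes as a dashed line (Hpx and Kng2, lower than -4.2, are drawn at that edge). The medians run from -0.98 for bile acid genes to 0.83 for the receptor and its induced genes (0.43 without 8 h replicate 3). The proteasome subunits, each read by its brightest probe set, all lie to the right of 0.

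The neighbouring times place the 8 h values. The tests between times treat their arrays as independent, though replicate 3 at 8 h was closest to replicate 3 at 7 h. Between 8 h and 7 h none of 8740 probe sets passed (0%) in limma's test, 205 had an unadjusted p under 0.05 (2.35%), and leaving out 8 h replicate 2 gave 1. Between 8 h and 4 h 3 probe sets passed (0.0343%), 1 higher (0.0114%) and 2 lower (0.0229%), of 651 with an unadjusted p under 0.05. One reads Dhcr7, the last enzyme of cholesterol synthesis, with 3518, 2155 and 2292 at 8 h, against 526, 1041 and 1023 at 4 h. The groups did not overlap, and the difference of 8 h minus 4 h was 1.61 ± 0.29 (adjusted p = 0.0185). Against the controls, at 1860.3 ± 456 (SD, n = 4), Dhcr7 at 8 h did not pass (0.50, adjusted p = 0.262). The other 2 read Gch1, which starts tetrahydrobiopterin synthesis. Its brighter probe set had 1945, 1454 and 3347 at 8 h, against 4654, 5939 and 5162 at 4 h, with no overlap (-1.29 ± 0.24, adjusted p = 0.0187). Gch1 at 8 h was -0.66 (adjusted p = 0.064) against the controls. Leaving out 1 array of either group moved the count at 8 h minus 4 h between 0 and 10.

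Single genes differed in when they stood where they were at 8 h. Gucy2c had a mean of 72.9 ± 6.80 after 1 h and 1919.7 ± 594 after 4 h. It stood at 2024 ± 1041 when sampled at 8 h, with 1765 ± 527 by 12 h and 487 ± 266 by 18 h (SD; n = 3 except 2 at 12 h). Zfp354a was 104 ± 6.98 after 2 h (n = 2) and 1377 ± 241 after 5.5 h, with 823 ± 583 for the 8 h arrays and 92.9 ± 32.8 by 12 h (n = 2). Aldh1a1 was 3561 ± 615 after 4 h and 1712 ± 740.0 after 7 h, then 1572 ± 743 for the 8 h arrays and 5089 ± 2148 by 18 h, and its lowest mean of the 16 times was that at 8 h. Nr1h4 was 353 ± 162 at 8 h and 1318 ± 71.9 at 12 h (n = 2), against 1318 ± 453 in the controls. Hal showed the same step, with 418 ± 429.7 at 8 h and 1495 ± 111 at 12 h. Bdh1 was 663 ± 343 for the 8 h arrays, 1606 ± 140.2 by 18 h and 2258 ± 417 by 72 h, against 3559 ± 1097 in the controls. S100a8 was 2599.5 ± 722 after 0.5 h, 1073 ± 1160.0 for the 8 h arrays and 92.7 ± 22.9 by 18 h. These courses are given as levels, with no test between the times.

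**Figure D4:**
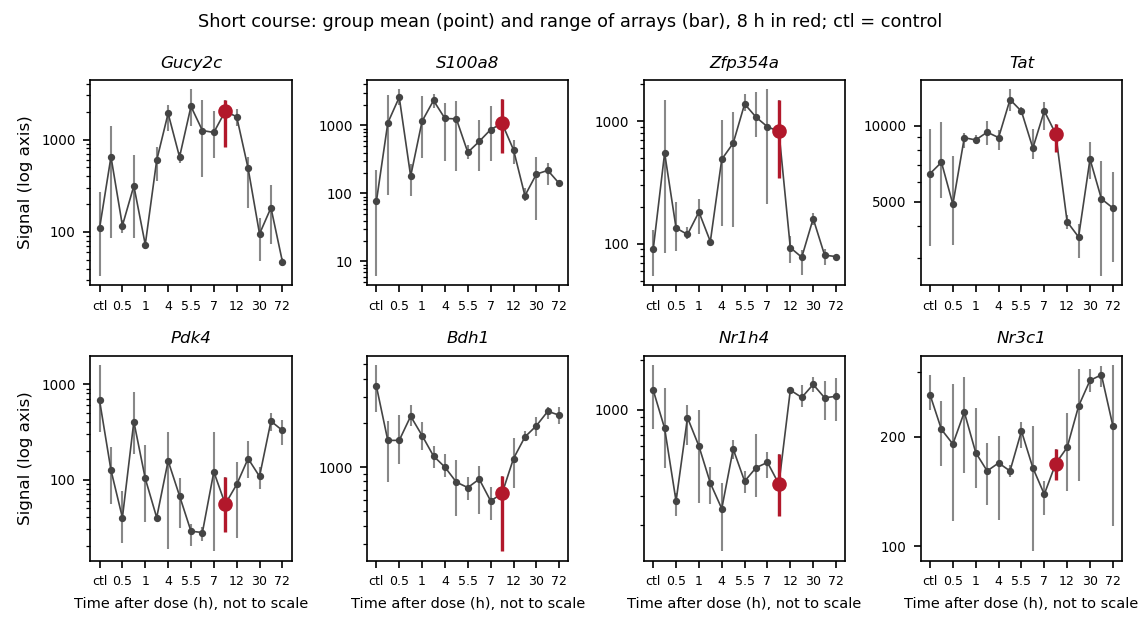
Signal (log axis, intensity units) of 8 genes in the controls (ctl) and at the 16 times of the short course, as group means with bars from the lowest to the highest array and 8 h in red. Gucy2c and Zfp354a stand high around 8 h, Pdk4, Bdh1 and Nr1h4 stand low, and the bars of S100a8 are wide at 8 h.

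The long course offers arrays that share no control with the 8 h comparison. It was scaled apart, on another array design, so only differences are set side by side, the mean of 6 h and 10 h minus its own controls (8 and 4 arrays). There 866 of 15866 probe sets passed (5.46%), 474 higher (2.99%) and 392 lower (2.47%), or 531 and 237 with median centring. Of 4527 genes measured in both, 268 rose at 8 h, and 56 of them rose in the long course. That is 20.9% of the rises at 8 h and 34.8% of the 161 in the long course, where 3.56% of all genes rose. Of 162 falls at 8 h, 23 were lower in the long course, 14.2% of the falls at 8 h and 15.5% of the 148 in the long course, where 3.27% of all genes fell. No gene passed in opposite directions. A2m had the largest long-course difference among the named genes, 4.53 ± 0.49 (adjusted p = 6.39e-08), next to Zfp354a with 3.01 ± 0.44 (adjusted p = 1.47e-05) and Rdh16 with 2.81 ± 0.26 (adjusted p = 1.49e-09). Klf9 (1.48 ± 0.19, adjusted p = 1.13e-06), Il1r1 (1.52 ± 0.23, adjusted p = 2.36e-05) and Hmox1 (1.48 ± 0.30, adjusted p = 0.00142) also rose there, and Tat, which did not pass at 8 h, rose by 1.89 ± 0.29 (adjusted p = 3.44e-05). Pdk4 (-1.24 ± 0.24, adjusted p = 0.000709), Ak4 (-1.16 ± 0.20, adjusted p = 0.000122) and Adh4 (-0.95 ± 0.24, adjusted p = 0.0107) fell in both. In contrast Gucy2c (0.12 ± 0.28, adjusted p = 0.908), Fabp4 (0.48 ± 0.35, adjusted p = 0.55), S100a8 (0.30 ± 0.29, adjusted p = 0.701), Sod2 (-0.11 ± 0.24, adjusted p = 0.892) and Aldh1a1 (0.23 ± 0.34) did not pass in the long course. Whether any gene differs between the courses was not tested, since the courses were scaled apart.

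**Figure D5:**
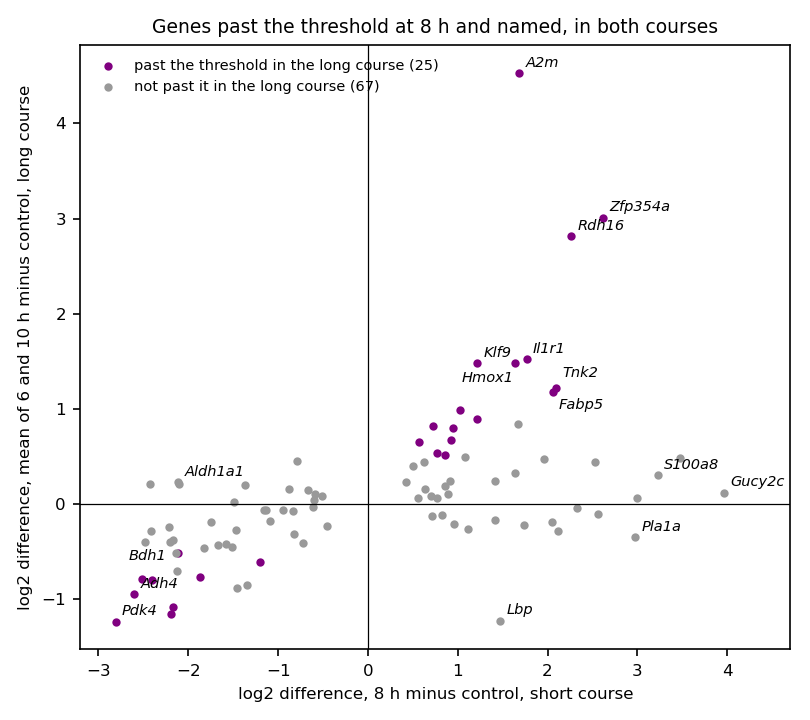
Log2 difference in the long course (mean of 6 h and 10 h minus control, vertical) against log2 difference at 8 h of the short course (horizontal) for 92 named genes past the threshold at 8 h, with Hpx left out for its erratic probe set. The 25 purple genes passed in the long course too, all in the direction of 8 h, while Gucy2c, Fabp4, S100a8 and Pla1a did not pass there.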

How the data were processed

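The authors deposited 1 intensity per probe set and array, on a linear scale, for arrays whose control probe sets carry Affymetrix names. How probes were combined is not given in the sources used here. Short-course arrays shared a 2% trimmed mean near 801, except 1 array at 6 h, at 150, which was multiplied to the common value. The 59 control probe sets were left out, and log2(signal + 32) of the other 8740 was fitted by group over all 47 arrays, using limma 3.58.1 under R 4.3.3, with a variance that follows the signal level, so that the groups share one estimate of spread. The threshold was a Benjamini-Hochberg adjusted p of 0.05. The long course was fitted apart.

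A probe set was named only with exactly 1 gene symbol (7006 probe sets, while 308 had several and 1426 none), and symbols were updated through gene IDs for 6985. A gene stands for its brightest probe set. Named are the 15 largest rises and 15 largest falls past the threshold with no overlap and a mean signal at or above the 30th percentile, Tat and Nr3c1, up to 5 members past it of each of 27 pathway lists, and the genes that the comparison with 4 h gave by the same rule. Other members are given as values, and marker lists of 9 cell types were read beside them. The members, lists and rules were chosen with earlier results of these data known.

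On simulated data for 8 h minus control over 8740 probe sets, 11.9% of changes of 0.5, 74.6% of 1 and 95.5% of 2 on the log2 scale were recovered, with 4.72% false calls. The changes of these sizes were placed in 67, 67 and 66 probe sets, none of them dim or at the top of the signal range. Recovery among dim probe sets was therefore not measured. The simulated noise was independent between arrays, with no array standing apart and no bright probe sets near 0 on single arrays. The share of false calls among the real calls was therefore not measured. The number of arrays limits the precision. Other added constants, scalings, filters, weights, a replicate block and left-out arrays were tried.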

Additional observations from a re-analysis of the deposited data

Results flagged for a closer look

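In 5 of the 97 genes read, 1 of the 4 controls stood far from the other 3, where chance alone gives about 1 in 20 groups. Cd14 was 1286 in control 4, against 1897 to 1962 in the others, and Elovl5 was 6017 in control 2, against 9943 to 11020. Gcgr was 401 in control 2, against 1008 to 1122. Ahcy was 6990 in control 1, against 4200 to 4457, and Canx was 5362 in control 2, against 3389 to 3463.

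For 7 genes every array of the short course at 8 h lay on one side of its control mean and every array of the long course at 6 h and 10 h on the other, and the difference between the courses was not tested. Higher at 8 h and lower in the long course were Pla1a (log2 differences of 2.98 at 8 h and -0.35 in the long course), Cd14 (2.12 and -0.29), Gpx2 (1.74 and -0.23), Lbp (1.47 and -1.23), Ccnd3 (1.12 and -0.26) and Dhcr7 (0.50 and -0.35). Bckdha, with -0.79 at 8 h and 0.44 in the long course, went the opposite way. None of the 7 passed the threshold in the long course.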

How the results depend on the processing

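No alternative turned the direction of a named gene, but median centring turned the split of calls at 8 h minus control to 204 higher and 460 lower, against 465 and 267. The count of 732 at 8 h minus control lay between 616 and 807 with 3 other added constants, the 30th percentile filter, median centring, quantile normalisation and array weights. It was 365 with the replicate block, 59 with only the arrays of the 2 groups, 96 with every array on its deposited scale, and between 180 and 967 without single arrays. The fit of the 2 groups and those without single arrays hold fewer arrays. The deposited scale alters only 1 array at 6 h, which is outside the arrays compared but enters the shared estimate of spread. The cause was not tested for that scale or for the others. Long-course counts stayed between 586 and 1041, against 866. Chosen after seeing the data, leaving the 7 h array of lowest correlation out of the fit gave 832. Same-numbered arrays at 8 h and control deviated with correlations of 0.19, -0.15 and -0.11, too few values to settle whether the numbers pair arrays. The block left the count at 8 h minus 4 h at 3. The 3 calls at 8 h minus 4 h became 6 with the filter, median centring or quantile normalisation, 5 with the largest added constant, 34 with array weights, 0 with only the arrays of the 2 groups or on the deposited scale, and between 0 and 10 without single arrays. At 8 h minus 7 h the count was 0, or 1 without 8 h replicate 2. Of the 93 named genes past the threshold, 18 passed without each of the 7 arrays in turn and 69 did not pass without 8 h replicate 3. Of the 93, 81 did not pass with the arrays of the 2 groups only, 62 on the deposited scale, 36 with the replicate block, 20 with median centring, 17 with array weights and 11 with quantile normalisation.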

Other observations

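Among the bright probe sets that read near 0 on at least 1 array at 8 h, 2 past the threshold carry no single gene symbol. Their differences, like that of Hpx, are no measure of size. Probe set M11794cds#2_f_at was near 0 on every 8 h array and on no control. It read 0.175, 0.0124 and 0.0444 at 8 h, against 7748, 2799, 26044 and 20281 in the controls, a log2 difference of -8.34 (adjusted p = 0.00543). Probe set rc_AI176456_at, annotated to more than 1 gene, read 4.54, 716.5 and 0.00910 at 8 h, against 8545, 4432, 10663 and 12265 in the controls (-6.46, adjusted p = 0.00418).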
